A study of Mus musculus with 2 samples.

Results

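The genes described here are 8 components of the perineuronal net and of the wider extracellular matrix of the brain: the lecticans Acan, Bcan, Ncan and Vcan, the link proteins Hapln1 and Hapln4, the cross-linker Tnr and the receptor phosphatase Ptprz1. They were chosen by name out of 21728 protein-coding genes of GENCODE M21 on mm10. No rule on their values was used, but earlier results of these data were known. Their chromatin was read from DNase-seq of cortical tissue (left cerebral cortex). The animals were 2 B6CASTF1/J males, 36 days old, and each gave 1 library, here replicate 1 and replicate 2. They are first-generation hybrids of C57BL/6J and CAST/EiJ, no treatment is named in the labels and there is no second group, so that no test between conditions exists and errors are the SD over 2 mice. The labels number them as different males, although the donor entry is the same for both. For each gene, the accessible sites are the peaks of the shorter of the authors' peak lists between 10 kb before and 10 kb after the gene body, and peaks of the 2 mice that overlap by at least 1 bp, or touch, form 1 site. The windows held 56 such sites of 82968 in the genome, and 6 of them belong to the windows of both Ncan and Hapln4.

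A perineuronal net is a lattice of hyaluronan, proteoglycans and link proteins that coats the soma and proximal dendrites of certain neurons, in cortex above all the fast-spiking interneurons that make parvalbumin, and it forms as a critical period closes. Lecticans are core proteins that carry chondroitin sulfate chains and bind hyaluronan at one end. Link proteins lock that bond, and tenascin-R, encoded by Tnr, ties the far ends of lecticans together. DNase I cuts DNA where nucleosomes have been displaced, which is typical of active promoters and enhancers, and a bound protein leaves a short protected stretch, called a footprint.

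The sequences of 8 stretches are shown because the results below turn on them. They carry the highest promoter site of the set (Ncan), its counterpart at Hapln4, the 3 sites where a CTCF match lies in a footprint of both mice, the sites of highest mean inside Tnr and Acan, and the start site with the largest ratio between the mice among sites that the shorter list gives in both (Ptprz1). Sequence is that of the C57BL/6J reference, RefSeq GRCm38.p6 (mm10), 5′ to 3′ on the strand of the gene. Start sites are given only upstream of the annotated start, except for 30 bases at Hapln4, and capitals mark bases inside footprints of both mice.
Ncan start, upstream part (chr8:70120874-70120980, minus strand): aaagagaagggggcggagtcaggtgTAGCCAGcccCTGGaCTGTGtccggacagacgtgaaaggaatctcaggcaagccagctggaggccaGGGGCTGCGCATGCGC
Hapln4 start, 30 bases (chr8:70083497-70083526, plus strand): agaccgctgTGCGCGTGCgcagttggggaa
Bcan downstream site (chr3:87987021-87987200, minus strand): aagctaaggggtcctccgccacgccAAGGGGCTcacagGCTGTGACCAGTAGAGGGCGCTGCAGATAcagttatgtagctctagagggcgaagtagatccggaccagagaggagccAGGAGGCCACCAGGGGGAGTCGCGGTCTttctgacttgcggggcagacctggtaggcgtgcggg
Hapln1 intron site (chr13:89548317-89548500, plus strand): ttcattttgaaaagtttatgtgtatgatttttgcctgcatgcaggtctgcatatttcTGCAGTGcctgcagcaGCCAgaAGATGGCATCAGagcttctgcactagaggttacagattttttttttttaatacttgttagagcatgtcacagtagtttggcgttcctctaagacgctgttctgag
Tnr start, upstream part (chr1:159523601-159523768, plus strand): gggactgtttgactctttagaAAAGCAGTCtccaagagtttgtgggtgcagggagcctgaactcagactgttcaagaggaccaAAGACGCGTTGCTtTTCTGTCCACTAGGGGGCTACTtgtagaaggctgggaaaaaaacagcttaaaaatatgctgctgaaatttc
Tnr intron site (chr1:159717121-159717400, plus strand): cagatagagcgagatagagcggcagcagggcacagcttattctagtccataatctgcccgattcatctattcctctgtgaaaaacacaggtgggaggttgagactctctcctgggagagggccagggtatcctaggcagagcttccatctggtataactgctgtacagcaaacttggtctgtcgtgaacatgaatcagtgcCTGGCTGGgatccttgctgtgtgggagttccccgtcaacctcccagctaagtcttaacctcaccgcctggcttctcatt
Acan intron site (chr7:79080861-79081060, plus strand): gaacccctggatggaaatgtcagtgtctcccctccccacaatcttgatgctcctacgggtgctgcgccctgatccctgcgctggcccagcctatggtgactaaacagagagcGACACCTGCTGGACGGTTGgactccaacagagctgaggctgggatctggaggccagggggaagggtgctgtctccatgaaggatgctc
Ptprz1 start, upstream part (chr6:22875321-22875501, plus strand): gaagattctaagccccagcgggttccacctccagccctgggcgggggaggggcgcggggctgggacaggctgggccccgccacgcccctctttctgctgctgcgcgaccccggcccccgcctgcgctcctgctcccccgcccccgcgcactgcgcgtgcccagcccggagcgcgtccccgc

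The libraries held 72021 and 59150 peaks in the shorter list, in the order replicate 1 and replicate 2 that is kept throughout, and 125119 and 103840 in the longer. Peak height, in the authors' own signal, came in whole steps that were read as cuts scaled to library depth, which places the libraries at 160.1 and 145.4 M cuts. The median peak stood at 1.18 and 0.963, or 189 and 140 cuts. Of 6 excitatory neuron markers, 6 in each mouse had a promoter peak, while of 6 liver markers none did in either. In bulk cortex, fewer cells with an open site and less opening per cell cannot be told apart.

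A promoter peak, that is a listed peak within 1 kb of any annotated start site of the gene, was present at 8 of 8 genes in replicate 1, beside 63.5% of all coding genes. In replicate 2 it was present at 6 of 8, beside 58.4% of all coding genes, and 6 of 8 had one in both mice, beside 57.7%. Each of the 8 had at least 1 site listed in both mice within its window, as did 74.2% of coding genes. The median height at these promoters was 1.67 in replicate 1 and 0.925 in replicate 2, against 2.05 and 1.04 over all coding genes, genes without a peak counted as 0. Over the coding genes with a promoter peak in both mice the medians were higher, 4.79 and 2.69. Ncan stood first at 3.67 ± 1.72 (mean ± SD, n = 2 mice, here and below). It was followed by Tnr at 2.22 ± 0.0289, Vcan at 1.52 ± 0.0348, Hapln4 at 1.29 ± 1.82, Bcan at 1.26 ± 0.229, Ptprz1 at 1.19 ± 0.849, Hapln1 at 1.14 ± 0.552 and Acan at 0.265 ± 0.375. Among neighbours in that order, the values of the mice did not overlap between Ncan and Tnr, between Tnr and Vcan, or between Hapln1 and Acan, and they overlapped between all others. The small SD of Tnr joins peaks at different starts, and at a single one of these starts the SD was 0.364 or 0.496.

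**Figure D1:**
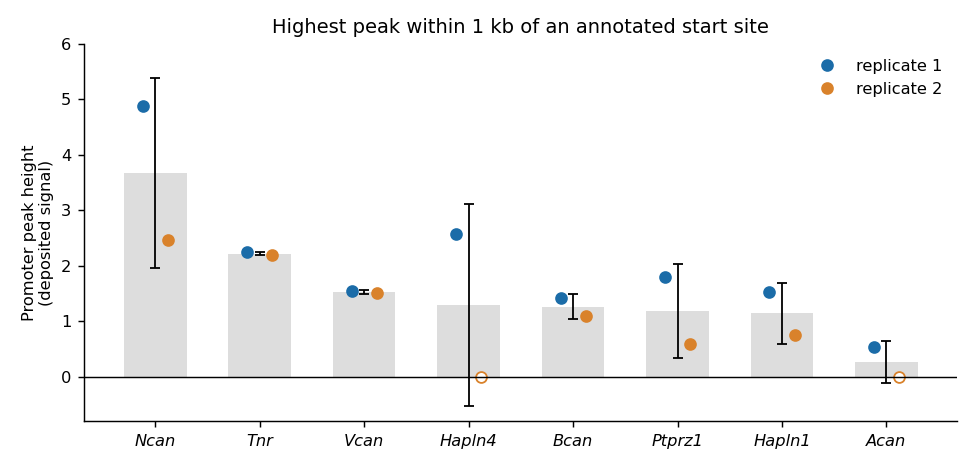
Height of the highest peak within 1 kb of an annotated start site (vertical axis, deposited signal) for the 8 genes, ordered by mean. Points are the mice, bars the mean and whiskers the SD over 2 mice, and open circles mark no listed peak. Ncan is highest in both mice at 4.88 and 2.46, and Acan and Hapln4 have no peak in replicate 2.

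Among the lecticans, Ncan, which encodes neurocan, a proteoglycan made by neurons and astrocytes of the developing brain, had the most accessible start site. The gene lies on chromosome 8 from 70093085 to 70120873 on the minus strand and has 1 annotated start. Its promoter peak was 4.88 in replicate 1 and 2.46 in replicate 2, or 782 and 357 cuts, and its midpoint lay 2 bp from the start in replicate 1 and at -8 bp in replicate 2. In replicate 1, 71.9% of coding genes had a lower promoter value, and in replicate 2, 68.7% did, genes without a peak included. Against the medians of genes with a peak in both mice, 4.79 and 2.69, Ncan was slightly higher in replicate 1 and lower in replicate 2. The peaks held 5 and 4 footprints. The last 10 bases printed for the Ncan start, GCGCATGCGC, match the pattern of NRF1 (GCGC, any base, TGCGC), a general activator of metabolic and neuronal genes, and all 10 lay in footprints of both mice.

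The Ncan window held 11 sites, 5 of them in both mice, or 10.5 shared sites per 100 kb of window, the highest density of the 8 genes. Among 7573 coding genes of 20 to 100 kb, 10.4% had at least as many shared sites, and the median was 2. An intronic site 2.0 kb into the gene had heights of 2.70 and 1.85, and a pair of further intronic sites, 21.4 and 20.5 kb in, had 1.16 and 1.21 at the first and 1.61 and 0.908 at the second. A site upstream, at -8.62 kb, had 1.57 and 1.49, but lay nearer to the start of Nr2c2ap, at -1841 bp from it. The highest site of replicate 2 alone within the Ncan window, at 1.02, also lay upstream, at -7.74 kb and closer to Nr2c2ap.

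**Figure D2:**
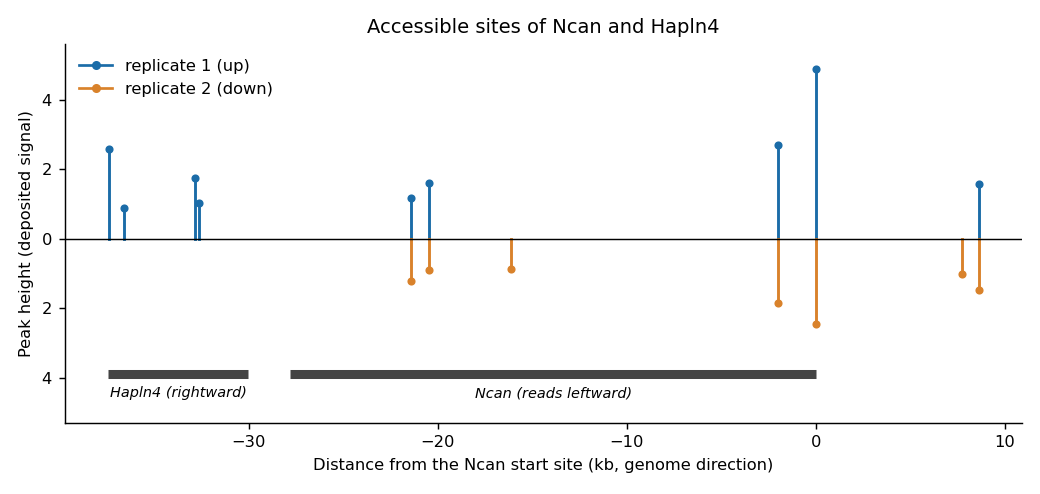
Peak heights (vertical axis, deposited signal; replicate 1 up, replicate 2 down) at the sites of Ncan and Hapln4 by distance from the Ncan start (horizontal axis, kb, genome direction). Bars show the gene bodies. The 4 sites in Hapln4 have a stem for replicate 1 only, whereas 5 sites in and above Ncan have stems for both mice.

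Bcan, which encodes brevican, a short lectican of the adult brain, is a compact gene of 12.7 kb on chromosome 3, from 87987531 to 88000230 on the minus strand. Its promoter values, 1.42 and 1.10, came from different peaks. In replicate 1 the highest peak lay at -158 bp from the start, where replicate 2 had 0.791, and in replicate 2 it lay in an intron at 676 bp from the nearest start, where replicate 1 had 1.04 in the longer list alone. The highest Bcan site lay beyond the other end of the gene, 13.1 kb from the start, with 3.02 and 2.36. It held 3 footprints in each mouse, and bases 46 to 57 of its printed sequence match the CTCF pattern CCNNNAGNNGGC, all in capitals. CTCF is an insulator protein that anchors chromatin loops.

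Vcan encodes versican, the lectican of oligodendrocyte precursors and of many tissues outside the brain, and lies on chromosome 13 from 89655312 to 89742509 on the minus strand. With 9 annotated starts, its highest promoter peak was at an internal start 2.05 kb into the gene, with the almost equal values 1.55 and 1.50, and 9 and 3 footprints. The site at the outermost start was lower, 0.799 and 0.530. A further site, 2.95 kb into the gene, had 1.29 and 1.06, and a site in a coding exon 85.3 kb in had 0.568 and 0.495. Of 6 sites 4 were shared, and the remaining 2 were in replicate 1 alone, at 0.625 and 0.568. All sites near the start also overlap the antisense transcript Gm4117, and DNase-seq does not tell strands apart.

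Acan, which encodes aggrecan, the lectican used to define cortical nets, had the weakest promoter of the set. The gene lies on chromosome 7 from 79053483 to 79115099 on the plus strand. Replicate 1 had a peak of 0.531 at -198 bp, resting on 85 cuts, and another of 0.506 at -556 bp. Both also overlap the antisense transcript Gm26633, from which DNase-seq cannot tell them apart by strand. Replicate 2 had no peak within 1 kb of a start in either list, and its list of false discovery rates held no base there. The site inside the gene that both mice shared was intronic, 27.5 kb from the start, at 1.21 and 0.743, higher than the promoter peak in replicate 1. A footprint of 27 bp in each mouse overlapped that of the other over the 19 capitals of the printed sequence. A second shared site, at 0.706 and 0.894, lay 70.2 kb from the start, in the body of the neighbouring link protein gene Hapln3, whose record lies 2 bp beyond that of Acan.

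By the highest peak near any start, the promoters of the link protein genes were higher in replicate 1, as were those of the other members. So were 79.4% of shared sites of the genome. At Tnr and Bcan this compares different peaks, and at the outermost Tnr start replicate 2 was higher, with 1.69 and 2.20. Hapln1, which encodes the link protein of cartilage and of cortical nets, lies on chromosome 13 from 89539796 to 89611652 on the plus strand, 43659 bp from Vcan. Its promoter peak was 1.53 and 0.750, at -485 and -465 bp. The ratio of 2.04 was near the 1.99 of Ncan, and 16.9% of shared sites of the genome had one as high. Replicate 2 also had a peak of 0.440 at -145 bp, where replicate 1 had none in either list although all 140 bases were listed there with a lowest false discovery rate of 6.09e-10. Absence from the peak lists is therefore not absence of cleavage. A site in an intron, 8.61 kb from the start, had 0.656 and 0.654, the closest match between the mice in the set, and its CTCF match at bases 75 to 86 had 10 of its bases in footprints of both. The highest site of replicate 2 alone, at 0.715 and 3.41 kb from the start, held a CTCF match as well.

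Hapln4, which encodes a link protein of nets in brainstem and cerebellum that partners brevican, is 7.41 kb long, on chromosome 8 from 70083457 to 70090862 on the plus strand, and converges with Ncan across 2222 bp. In the shorter list, replicate 1 had 4 sites in it and replicate 2 none. At the start site replicate 1 had 2.57, or 412 cuts, and replicate 2 had no peak in the shorter list and 0.839 in the longer, with a lowest false discovery rate of 0.00144. The other sites of replicate 1 were 1.74 at 4.59 kb, 1.01 at 4.81 kb and 0.874 at 0.810 kb, and at the first of these replicate 2 had 0.791 in the longer list. Replicate 2 nevertheless had a footprint of 9 bp at the start site, and that stretch covers 8 bases of the NRF1 match at bases 11 to 20 of the printed sequence. A footprint of 23 bp in replicate 1 covers all 10. The shared sites counted for Hapln4 were the pair in Ncan introns described above, and none lay in Hapln4 itself.

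Tnr, which encodes tenascin-R, a glycoprotein made by oligodendrocytes and some interneurons, is the longest of the 8 genes, 408 kb on chromosome 1 from 159523769 to 159931729 on the plus strand, and held 23 of the 56 sites. Of these 13 were in both mice, 6 in replicate 1 alone and 4 in replicate 2 alone. Among 566 coding genes over 300 kb, 17.0% had at least as many shared sites, against a median of 6. The promoter values were 2.24 and 2.20, but they belong to different starts. Replicate 1 was highest at an internal start 250 kb into the gene, where replicate 2 had 1.54, and replicate 2 at the outermost start, where replicate 1 had 1.69. The printed stretch upstream of the outermost start carries a CTCF match at bases 104 to 115 that lay wholly in footprints of both mice.

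The Tnr site with the highest mean was intronic, 193 kb from the start, at 3.15 and 1.91. In replicate 2 the outermost start, at 2.20, was higher. Other intronic sites had 1.56 and 1.16 at 147 kb and 1.50 and 0.977 at 216 kb. No site of the shorter list lay in the first 90 kb after the start region, and the shared sites were spread over the rest of the body. Mean heights of the 13 shared sites ran from 0.748 to 2.53 with a median of 0.981, and 11 of 13 were higher in replicate 1. Sites of a single mouse had heights of 0.462 to 0.849, which overlap the lower end of that range. The longer list added 21 weak sites, of which 3 were in both mice, among them 1 at 65.2 kb with 0.493 and 0.585.

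**Figure D3:**
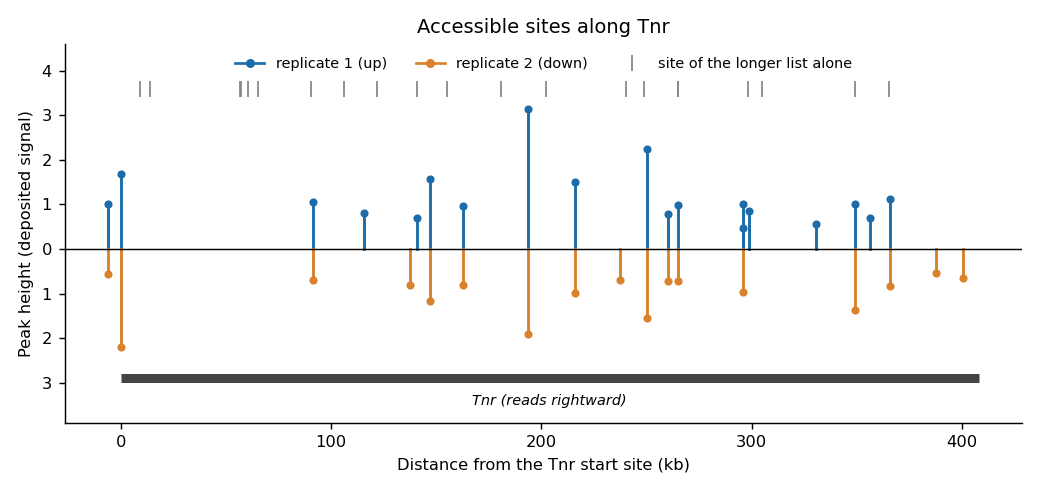
Peak heights (vertical axis, deposited signal; replicate 1 up, replicate 2 down) along Tnr by distance from its start (horizontal axis, kb). The bar shows the gene body and grey ticks the 21 sites of the longer list alone. The highest stems stand at 193 kb, at the internal start at 250 kb and at the outermost start.

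The share of sites with a pattern stood above that of the genome for some patterns and below it for others, with no test made. The AP-1 pattern TGANTCA, bound by the dimeric Fos and Jun factors, was in the central 200 bp of 8 of the 23 Tnr sites and of 10 of all 56 sites (17.9%), against 9.70% of all sites of the genome. One lies at bases 191 to 197 of the printed Tnr intron site, just outside its capitals. Counted over whole sites away from promoters, 11 of 37 member sites (29.7%) held it, against 12.5% of all such sites. The E-box CAGATG was in the central 200 bp of 10 of the 23 Tnr sites and of 15 of the 56 sites (26.8%), against 20.4% of all sites. In the central 200 bp, the sites outside Tnr held AP-1 and CAGATG at lower shares than the genome. The higher central shares of the set thus rest on Tnr, which does not extend to AP-1 over whole sites. There, AP-1 was also at 3 of 11 sites of the Ncan window, 1 of them also in that of Hapln4, and at 1 of 3 Ptprz1 sites. It was at none of Acan, Bcan, Vcan or Hapln1. The SOX pattern ACAAAG was rarer, at 2 of 56 (3.57%) against 12.5%, and over whole distal sites the GC box GGGCGG was at 1 of 37 (2.70%) against 9.45%. No AP-1 match lay in a footprint of both mice, as was so for all but 0.265% of sites in the genome. A match is a description of the letters and not evidence of binding.

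Ptprz1 encodes a receptor phosphatase of astrocytes and oligodendrocyte precursors, whose secreted form, phosphacan, binds tenascin-R. It lies on chromosome 6 from 22875502 to 23052916 on the plus strand. Its start site had 1.79 and 0.592, or 287 and 86 cuts, a ratio of 3.03 that was the highest among the 29 shared sites of the set. The gene is 177 kb long but had 1 shared site, and 94.6% of 1920 coding genes of 100 to 300 kb had at least as many, against a median of 3. The other sites were 0.650 in replicate 1 alone, in a coding exon, and 0.468 in replicate 2 alone, 66.0 kb into the gene. The longer list added 5 weak sites, 2 of them in both mice, at 34.2 and 73.4 kb.

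**Figure D4:**
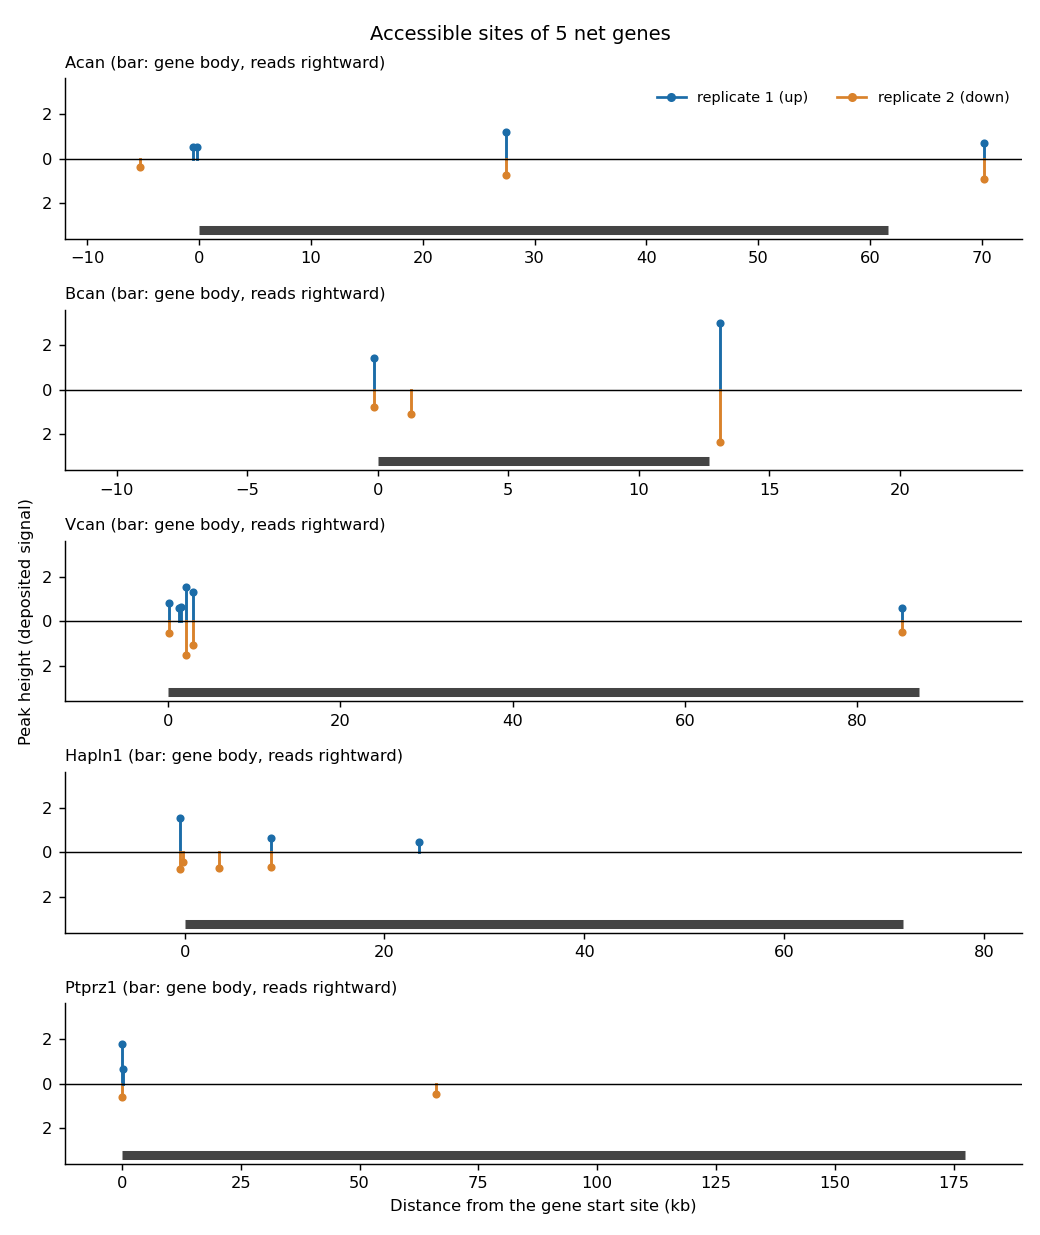
Peak heights (vertical axes, deposited signal; replicate 1 up, replicate 2 down) at the sites of Acan, Bcan, Vcan, Hapln1 and Ptprz1 by distance from the start in the direction of transcription (horizontal axes, kb). Bars show the gene bodies. The highest stems are those downstream of Bcan, 3.02 and 2.36, and the Ptprz1 body has no stem for both mice beyond its start.

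Over the whole set, 29 of 56 sites were in both mice, or 51.8% (exact Clopper-Pearson 95% interval 38.0 to 65.3, counting error only), beside 52.7% of all sites. There were 16 sites in replicate 1 alone and 11 in replicate 2 alone, and of these the longer list of the other mouse held 4 and 3. Under 50% GC content, 17.6% of the set was in replicate 1 alone, against 25.7% of all sites. Between 50% and 60% it was 26.1% against 35.9%. For replicate 2 alone, the share under 50% was 29.4%, slightly below that of all sites, and between 50% and 60% it was 13.0% against 12.2%. At 60% and over both shares were higher in the set, as given below. No genome share was computed for the 4 and 3 sites, so these counts cannot be called high or low. Sites of 1 mouse had heights of 0.399 to 2.57 with a median of 0.693, whereas mean heights of shared sites ran from 0.532 to 3.67 with a median of 1.18, which is lower than the median of 1.42 over all shared sites of the genome. Of the 56 sites, 18 lay within 1 kb of a start of their own gene, 29 in introns, 3 in exons, 4 upstream and 2 downstream. Sites within 1 kb of an own start were shared in 9 of 18 cases and intronic sites in 15 of 29. By distance from the start of any gene, 10 of 19 promoter sites and 19 of 37 distal sites of the set were shared, against 61.4% and 48.3% of all such sites.

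Footprints were found in most peaks of the set. Of 46 member peaks in replicate 1, 38 held one, or 82.6% (exact interval 68.6 to 92.2), and of 41 in replicate 2, 38 did, or 92.7% (80.1 to 98.5), beside 83.1% and 88.1% of all peaks. Sites of the set held 114 footprints in replicate 1 and 102 in replicate 2, of median length 9 bp, and 43 and 39 of them overlapped one of the other mouse. These counts include sites listed in 1 mouse alone. The share over the genome was not computed, so the counts cannot be called high or low. Of 16 patterns searched on both strands, CTCF lay in footprints of both mice at 3 sites, or 5.36%, against 7.74% of all sites, and NRF1 at 2 sites, or 3.57%, against 1.74%. The E-box CAGATG and the GC box GGGCGG did so at 1 Tnr site each, or 1.79%, against 2.58% and 8.13% of all sites. The other 12 patterns did so at none, against at most 1.81% of all sites for any of them.

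Heights were higher in replicate 1 at 25 of 29 shared sites, with a median ratio of 1.35, much as over the genome, where the median was 1.38 and 79.4% were higher in replicate 1. The ratio moved with the base composition of a site. Across 43755 shared sites of the genome, which come from the same pair of libraries, Spearman's rho between the ratio and the GC content of 200 bp was 0.533. In the set, the median ratio was 1.00 at sites under 50% GC, 1.46 between 50% and 60%, and 1.72 at 60% and over, against 1.10, 1.32 and 1.83 over all shared sites. The Ptprz1 start site had 79.5% GC, and in sites of 75% to 80% GC the median ratio was 2.53, with the central 80% between 1.73 and 3.61. At 60% GC and over, 7 of 16 sites of the set (43.8%) were in replicate 1 alone, among them the 4 Hapln4 sites with 62.0% to 70.5% GC, against 29.1% of all sites of that GC content. In the same class 3 of 16 (18.8%) were in replicate 2 alone, against 5.93%, and 6 of 16 (37.5%) were shared, against 65.0%. Whether base composition has a part in the differences at Hapln4, Ptprz1 and Acan was not tested.

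**Figure D5:**
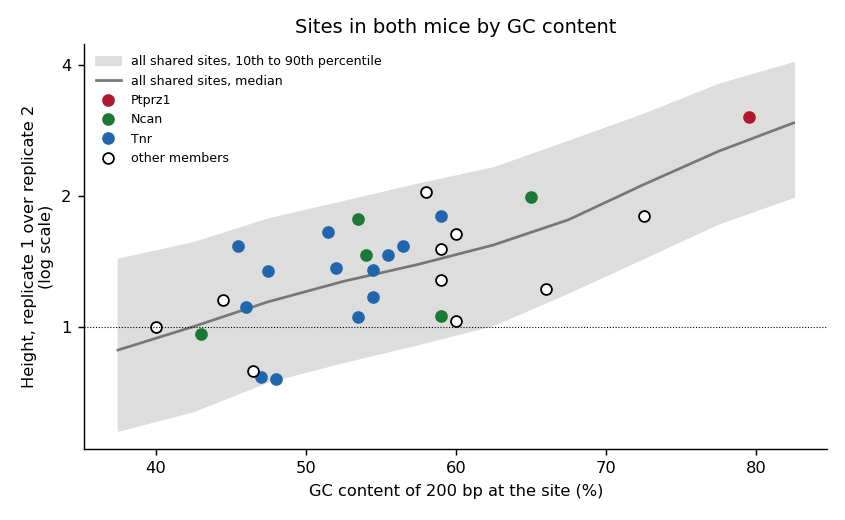
Ratio of peak heights, replicate 1 over replicate 2 (vertical axis, log scale), against GC content of the central 200 bp (horizontal axis, %) for the 29 shared sites of the set. The line and band show the median and the 10th to 90th percentiles of 43755 shared sites in steps of 5% GC. The Ptprz1 point, 3.03 at 79.5% GC, lies within the band.

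Genes of the same matrix gave a context. Of 21 genes for chondroitin sulfate synthesis, which build and sulfate the chains that lecticans carry, 18 had one at the promoter in each of the mice, led by the sulfotransferase Chst12 at 8.43 ± 1.71, the polymerizing factor Chpf at 6.71 ± 2.26 and the galactosyltransferase B3galt6 at 5.73 ± 2.38, while Chst13 had none. Of 9 other net and matrix glycoproteins 6 did, with Crtac1 at 4.00 ± 2.32, the pentraxin Nptx2 at 2.86 ± 1.73 and tenascin-C, Tnc, at 2.77 ± 0.848, and Cspg4 and Hapln3 had none. Of 8 genes for hyaluronan synthesis, binding and breakdown 4 did, with Cemip2 at 4.59 ± 1.99, the hyaluronidase Hyal1 at 3.58 ± 0.788 and Cemip at 2.63 ± 1.54, and none at the receptor Cd44 or the synthase Has1. Of 13 proteases and inhibitors that cut lecticans or block their cleavage 4 did, with Adamts1 at 2.50 ± 0.991, Timp2 at 2.50 ± 1.15 and Timp3 at 1.61 ± 0.344, and none at Adamts4 or Mmp2. Of 13 receptors and ligands of the matrix 9 did, with the chondroitin sulfate receptor Ptprs at 9.05 ± 2.05 and the adhesion molecules Ncam1 at 6.65 ± 0.204 and Cntn1 at 4.03 ± 0.975. The genome's share, 57.7%, was passed in the synthesis, glycoprotein and receptor lists and not in the others.

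Apart from the excitatory neuron list, with 6 of 6 in each mouse, marker genes of cortical cell types had a promoter peak in unequal numbers between the libraries. The direction was not the same in every list. Over all coding genes the shares were 63.5% and 58.4%. Of 6 genes listed for parvalbumin interneurons, which include the general GABA genes Gad1, Gad2 and Slc32a1, 5 in replicate 1 and 2 in replicate 2 had one. Only the potassium channel gene Kcnc1 had it in both, at 2.31 ± 0.870. Pvalb itself had 1.22 in replicate 1 and no peak in replicate 2. For astrocytes the counts were 4 and 2 of 6, for oligodendrocyte precursors 3 and 4, for oligodendrocytes 3 and 4, for microglia 1 and 0 and for endothelial cells 2 and 1. The part of cell makeup in the values of the 8 genes was not tested.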

How the data were processed

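The authors made 2 peak lists per library, without pooling the mice, and in each the height of a peak is a signal, per the deposited list of files. Its normalization, caller, aligner and thresholds were not given in the sources used here. Heights were whole multiples of 1 step per library (100% within 0.02 of a step), so depth is inferred from that step, and so is the common scale of the mice. The deposited false discovery rates are q-values of the cut rate per run of bases, listed up to 0.05. The deposited footprint score was 0.01 in every row, and positions alone were used.

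Gene records and start sites came from GENCODE M21, sequences from RefSeq GRCm38.p6. The parental alleles were not told apart. Coordinates are 1-based with both ends included. Distances run in the direction of transcription, from the midpoint of a peak or site. A footprint was counted in a peak when wholly inside it, and a pattern in a footprint when at least 50% of its length was inside. Patterns were searched in 200 bp at the centre of a site, or over the whole site where footprints are concerned or where stated. Merging, overlap, step size and pattern search were tested on simulated data. Python 3.11.15, NumPy 2.4.6, pandas 2.3.3, SciPy 1.17.1, pysam 0.24.0 and matplotlib 3.10.9 were used.

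All 8 genes were described. For each, the rule named its promoter peak, up to 4 sites of highest mean height and the highest site of 1 mouse, and for each gene list up to 3 genes with the highest promoters and up to 2 without a peak. Members, lists and patterns were chosen with earlier results of these data known. Alternatives were the longer list, the higher 50% of peaks by height, equal numbers of peaks, other windows and overlaps, heights over the library median, and leaving out each mouse. Reads and signal tracks were not used here.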

Additional observations from a re-analysis of the deposited data

How the results depend on the processing

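The 6 genes with a promoter peak in both mice were 4 to 7 under the other peak lists, windows and starts, and 6 to 8 with 1 mouse left out. The 56 sites became 98 with the longer list and 22 with the higher 50% of the peaks by height, and 41 to 45 with 1 mouse left out. The share of sites in both mice, 51.8%, was 31.8% when overlap had to reach 50% of both peaks, and between 45.9% and 58.3% under the other settings. It has no value with 1 mouse left out. Member peaks with a footprint, 87.6% ± 7.12 (SD, n = 2), were 96.7% among the higher 50% of the peaks and 82.6% to 92.7% with 1 mouse left out. Of 64 values for single genes, 17 moved, all of them among the 32 counts of shared sites, and 0 of 32 promoter heights moved by more than 1 SD. Single-gene heights were recomputed with the longer list, other windows and library scaling, but not from the outermost start alone. The site at that start had a mean of 0.665 at Vcan, against a promoter value of 1.52 ± 0.0348. At Tnr it had 1.94, against 2.22 ± 0.0289. Stability to the choice of start was therefore not shown for heights. The rules differed: a count moved on a relative change, which 1 site can make in a small count, and a height only past its SD. That SD exceeds the mean at Acan (0.265 ± 0.375) and Hapln4 (1.29 ± 1.82). The rise of Hapln4 to 1.71 with the longer list was therefore not counted, and counts and heights cannot be compared for stability. Bcan and Hapln4 had 0 shared sites in the gene body alone. No paired analysis was possible because there is 1 group of 2 mice. Peak lists give no value under their threshold, so that a site without a peak is not shown to be closed, and the lowest promoter peak, at Acan, rests on 85 cuts.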
